A study of Sus scrofa with 12 samples.

Results

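Testis RNA of 30-day-old Landrace boars was compared with testis RNA of 30-day-old Hezuo boars. The libraries were chosen by the breed and age on their labels: La1, La2 and La3 are Landrace, and Ha1, Ha2 and Ha3 are Hezuo, which makes 6 of the 12 libraries of the series. The remaining 6 come from 120-day-old boars of the same breeds (Lb for Landrace and Hb for Hezuo) and appear below only where they are named. Hezuo is an indigenous breed of small pigs from Gansu, and Landrace is a commercial breed. The boars of both breeds came from the same breeding company and were kept under the same conditions, and their testes were obtained by castration and frozen in liquid nitrogen. Total RNA was extracted with Trizol, ribosomal RNA was removed, and strand-specific libraries were sequenced as paired reads of 150 bases. Each library is 1 boar, with 3 boars in each group. The litters of the boars are not given in the sources used here, so breed and family cannot be told apart. With 3 boars against 3, an exact permutation test over boars cannot give a p under 0.1, and the tests below come from a model that edgeR fitted across all genes. Each test between the breeds at 30 days was repeated under 15 other settings (16 for lncRNAs). They exchange the tool, the scaling, the filter or the unit, treat equal library numbers as a block, or leave out a library, and where one ended a call, the text names it, mostly with the log2 fold change and adjusted p found there in parentheses, or gives the number of such settings.

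The table of coding genes held 23758931, 22538417 and 23490893 estimated counts in Ha1 to Ha3 and 22233155, 18523274 and 23563949 in La1 to La3. The table of long noncoding RNAs (lncRNAs) held 502340, 610188 and 633664 in Ha1 to Ha3 and 595622, 527499 and 496269 in La1 to La3. A count of 3 in a library was taken as the floor, and where each library of a group was at or under it, a fold change is given only as a bound if all were at 0, and otherwise not at all. These totals limit counting error only. Levels below are CPM, counts relative to library size after TMM scaling, unless FPKM, which is also scaled by length, is named.

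At this age the seminiferous cords of a pig hold Sertoli cells, which nurse the germ cells and still divide, and gonocytes and spermatogonia, while meiosis has not set in on any scale. Between the cords lie fetal-type Leydig cells, which make androgens and other steroids in large amounts in young boars, together with peritubular, endothelial and blood-derived cells. Sertoli cells lower their output of anti-Müllerian hormone (AMH) as they mature, and inhibin from the same cells holds back follicle-stimulating hormone from the pituitary.

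The defining genes of testis were present in each of the 6 libraries. SOX9, the transcription factor of Sertoli cells, stood at 106, 119 and 125 CPM in Ha1 to Ha3 and 121, 174 and 172 in La1 to La3. Leydig cell transcripts were high, with INSL3, a peptide hormone of these cells, at 1621, 1266 and 1539 CPM in Ha1 to Ha3 and 2732, 1812 and 1957 in La1 to La3. DDX4, an RNA helicase of germ cells, had 19.8, 22.7 and 19.2 CPM in Ha1 to Ha3 and 11.9, 12.2 and 15.3 in La1 to La3. Spermatid genes were near their lower limit: PRM1, which packs sperm DNA, averaged 1.12 CPM in Ha and 2.0 CPM in La, against 2416 CPM in Hb and 1198 CPM in Lb.

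Of 21674 coding genes in the table, 15648 passed the filter on low counts and were tested. A gene counted as called at an edgeR adjusted p under 0.05 together with a log2 fold change (Landrace over Hezuo) above 1 or below -1. In all, 1192 genes were called (7.62% of those tested), of which 564 were higher in Landrace (3.60%) and 628 lower (4.01%). The median log2 fold change over all genes tested was 0.00. An unadjusted p under 0.05 was reached by 5703 genes (36.4%). These shares are the background of each list of genes below. Among calls with neither group at the floor, the median size of the log2 fold change was 1.5. Leaving out La3 brought the genes called lower to 408. Of lncRNA transcripts, 2096 of 10706 were tested and 133 called (6.35%), with 55 higher in Landrace (2.62%) and 78 lower (3.72%).

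The boars of each breed lay closer to each other than to the other breed. Across coding genes, Spearman coefficients ran from 0.981 to 0.987 among the Hezuo libraries and from 0.985 to 0.989 among the Landrace libraries, against 0.954 to 0.965 between breeds. Ha3 was the Hezuo library nearest to Landrace, at 0.965 with each of La1 to La3. For lncRNAs the range between breeds was 0.601 to 0.672, and within breeds it was 0.778 to 0.815 in Ha and 0.800 to 0.812 in La. These coefficients run across genes, which are not independent replicates. For several genes below, Ha3 stood closer to the Landrace values than Ha1 and Ha2 did.

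Of Sertoli cell genes, hormones and a receptor were among those called. AMH stood at 131, 133 and 263 CPM in Ha1 to Ha3 and 569, 796 and 695 in La1 to La3. Each Landrace boar was above each Hezuo boar, and Ha3 was the highest of the Hezuo boars. The log2 fold change was 1.96 ± 0.28 (SE, edgeR adjusted p = 0.00351). INHA, the alpha subunit that all inhibins share, had 482, 390 and 660 CPM in Ha1 to Ha3 and 1293, 1636 and 1435 in La1 to La3, again with no overlap. Its log2 fold change was 1.51 ± 0.19 (SE, edgeR adjusted p = 0.00235). INHBA, the beta A subunit of inhibin A and activin A, is in the TGF-beta family list and not in that of Sertoli cells. It was counted at an assembled locus with 51.1, 53.2 and 78.3 CPM in Ha1 to Ha3 and 260, 325 and 352 in La1 to La3. The groups lay far apart, at 2.36 ± 0.19 (SE, edgeR adjusted p = 0.000531). A separate entry of the table also named INHBA held 1.53, 2.77 and 2.79 CPM in Ha and 2.29, 1.46 and 2.26 CPM in La, overlapped, and was not called. The annotation puts it on chromosome 12 and not among protein-coding genes, so it may not be the INHBA gene. FSHR, the receptor of follicle-stimulating hormone, had 35.0, 42.5 and 53.6 CPM in Ha1 to Ha3 and 92.5, 103 and 111 in La1 to La3, with all Landrace values above all Hezuo values. Its log2 fold change was 1.22 ± 0.15 (SE, edgeR adjusted p = 0.00246).

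Of other Sertoli cell genes, GDNF, a growth factor for spermatogonial stem cells, was low at 1.5, 2.29 and 2.41 CPM in Ha1 to Ha3 and 3.39, 6.88 and 5.32 in La1 to La3, did not overlap, and was called at 1.33 ± 0.32 (SE, edgeR adjusted p = 0.0248). That call was lost with limma on log2(FPKM + 1) and without Ha1, Ha2, La2 or La3 (0.51 to 1.41, adjusted p 0.0314 to 0.0815). INHBB, the beta B subunit, passed the adjusted threshold with a fold change too small for a call (0.40 ± 0.09 (SE, edgeR adjusted p = 0.0184)). SOX9 (0.41, adjusted p = 0.0821), GATA4 (0.15, adjusted p = 0.327), CLDN11 (-0.19, adjusted p = 0.287), WT1 (0.07, adjusted p = 0.756), DHH (-0.06, adjusted p = 0.772) and KITLG (-0.03, adjusted p = 0.919) were not called. Over the 11 Sertoli cell genes listed, 4 were called higher and 0 lower, and the median log2 fold change was 0.40, beside 0.00 over all genes tested. Their summed level was 1410, 1347 and 1779 CPM in Ha1 to Ha3 and 2775, 3345 and 3080 in La1 to La3, and INHA was the most counted. In bulk tissue, fewer cells of a type and less RNA per cell cannot be told apart.

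The chromosome positions below refer to the Sscrofa11.1 build. AMH lies on chromosome 2, 76415564 to 76418315, INHA on chromosome 15, 121581847 to 121586020 and FSHR on chromosome 3, 91607236 to 91775255.

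Most steroid-making genes of Leydig cells were not called, as for all genes (7.62% called). CYP17A1, which turns progestins into androgens, had 3616, 3492 and 3537 CPM in Ha1 to Ha3 and 6608, 4462 and 5382 in La1 to La3, and the groups did not overlap, but its log2 fold change of 0.63 ± 0.14 (SE, edgeR adjusted p = 0.0173) stayed under the limit. STAR, which carries cholesterol into mitochondria, had 2510, 2874 and 1962 CPM in Ha1 to Ha3 and 2140, 1448 and 2011 in La1 to La3, with overlapping groups (-0.40, adjusted p = 0.161). CYP11A1, the enzyme of the first step, went the same way as STAR (-0.47, adjusted p = 0.125), and the receptor LHCGR the other way (0.93, adjusted p = 0.0117), neither of them called. HSD17B3, which makes testosterone from androstenedione, had 127, 157 and 194 CPM in Ha1 to Ha3 and 369, 360 and 336 in La1 to La3. The log2 fold change was 1.15 ± 0.14 (SE, edgeR adjusted p = 0.00232). SULT2A1, a sulfotransferase of steroids, had 40.9, 43.7 and 55.9 CPM in Ha1 to Ha3 and 187, 98.8 and 119 in La1 to La3, with La1 highest. It was called at 1.53 ± 0.23 (SE, edgeR adjusted p = 0.00498), a call lost with all 12 libraries in one fit (1.53, adjusted p = 0.386). Of the 22 listed genes of Leydig cells and steroid synthesis, 19 were tested, 2 were called higher and 0 lower, and the median log2 fold change was 0.24. Their sum was 15704, 15057 and 13990 CPM in Ha1 to Ha3 and 21560, 14652 and 17730 in La1 to La3, which overlapped between breeds, with CYP17A1 the most counted and HSD17B1 at 0.

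CYP21A2, the 21-hydroxylase known from the adrenal cortex, was lower in Landrace. It had 35.6, 28.3 and 33.6 CPM in Ha1 to Ha3 and 10.4, 8.09 and 8.54 in La1 to La3. The Hezuo values were all above the Landrace values, and the log2 fold change was -1.85 ± 0.15 (SE, edgeR adjusted p = 0.000495). It lost the call with all 12 libraries in one fit (-1.85, adjusted p = 0.154). HSD11B1, which regenerates active glucocorticoid, was higher in Landrace with 4.99, 7.15 and 5.47 CPM in Ha1 to Ha3 and 13.6, 13.1 and 11.2 in La1 to La3 (1.10 ± 0.19 (SE, edgeR adjusted p = 0.00706)). Its call was lost with limma on log2(FPKM + 1) and without Ha1 (0.90 to 1.0, adjusted p 0.00447 to 0.0272). The glucocorticoid receptor gene NR3C1 (0.31, adjusted p = 0.0956) and the glucocorticoid-responsive gene TSC22D3 (0.40, adjusted p = 0.0181) were not called. The list of adrenal-like and glucocorticoid-handling genes gave 1 higher and 1 lower of 8 tested, with a median log2 fold change of 0.24 and a sum of 677, 683 and 608 CPM in Ha1 to Ha3 and 770, 706 and 752 in La1 to La3. TSC22D3 was its most counted gene.

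Opposite differences were seen at a pair of neighbouring aldo-keto reductase genes on chromosome 10, whose family reduces steroids and other carbonyls. AKR1C1 (chromosome 10, 65580297 to 65594998) had 417, 169 and 635 CPM in Ha1 to Ha3 and 2.33, 1.41 and 1.35 in La1 to La3. It was high in each Hezuo boar and close to absent in each Landrace boar, at -7.90 ± 0.58 (SE, edgeR adjusted p = 0.000350). AKR1CL1 (chromosome 10, 65559508 to 65572892), which ends shortly before it, had 338, 198 and 254 CPM in Ha1 to Ha3 and 741, 606 and 670 in La1 to La3. Here the Landrace boars were all above the Hezuo boars (1.35 ± 0.19 (SE, edgeR adjusted p = 0.00325)), a call that was lost with all 12 libraries in one fit (1.35, adjusted p = 0.251). The pair summed to 756, 367 and 889 CPM in Ha1 to Ha3 and to 743, 607 and 671 in La1 to La3, and these sums overlapped. Reads of such similar genes can be assigned to either copy, so the split between them is uncertain. Cholesterol synthesis and uptake genes gave 1 higher and 1 lower among 23 tested (median log2 fold change 0.32). DHCR7, the last step to cholesterol, fell with 63.5, 51.6 and 64.5 CPM in Ha1 to Ha3 and 30.0, 28.2 and 28.8 in La1 to La3 (-1.05 ± 0.11 (SE, edgeR adjusted p = 0.00147)), and lost the call without Ha3 (-1.0, adjusted p = 0.00249).

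**Figure D1:**
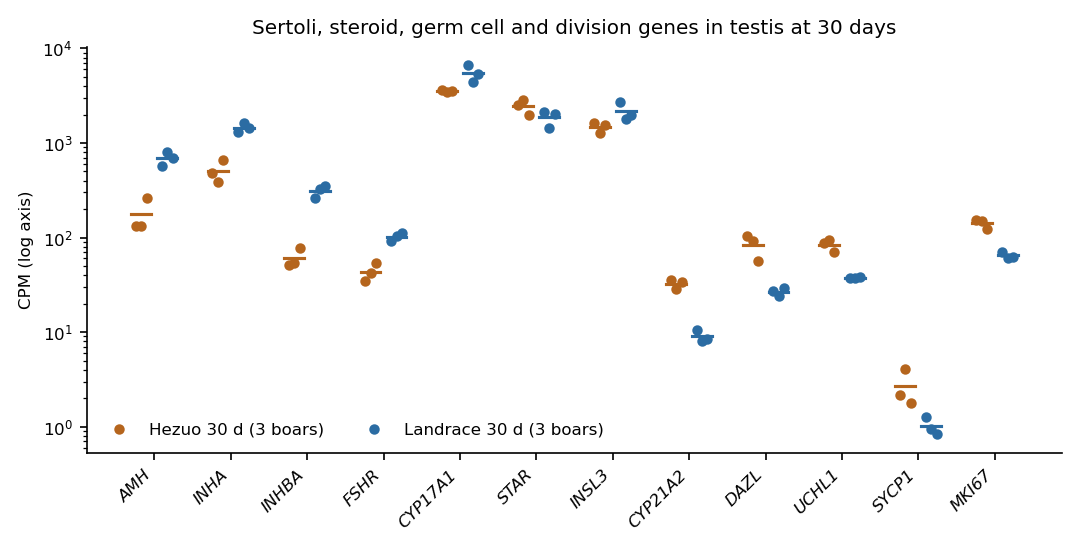
CPM on a log axis of 12 genes of Sertoli cells, Leydig cells, germ cells and dividing cells in the 6 libraries of 30-day-old boars, 1 dot per boar, with a bar at the mean of each breed. AMH runs from 569 to 796 CPM in Landrace and from 131 to 263 CPM in Hezuo, and DAZL from 23.8 to 29.1 CPM in Landrace and from 56.0 to 103 CPM in Hezuo.

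Some germ cell genes were called lower in Landrace. DAZL, an RNA-binding protein of germ cells, had 103, 92.8 and 56.0 CPM in Ha1 to Ha3 and 27.2, 23.8 and 29.1 in La1 to La3. The groups did not overlap, with Ha3 the lowest of Hezuo, and the log2 fold change was -1.66 ± 0.22 (SE, edgeR adjusted p = 0.00298). UCHL1, a deubiquitinase marking gonocytes and spermatogonia in pigs, had 88.0, 93.9 and 70.2 CPM in Ha1 to Ha3 and 37.2, 37.0 and 38.2 in La1 to La3. Hezuo was higher in every boar (-1.17 ± 0.12 (SE, edgeR adjusted p = 0.00143)). DDX4 passed the adjusted threshold without a call (-0.65 ± 0.15 (SE, edgeR adjusted p = 0.0191)). ZBTB16, a factor that keeps spermatogonia undifferentiated, was not called (-0.21, adjusted p = 0.102), nor was ETV5 (-0.06, adjusted p = 0.677). Of 17 spermatogonial genes tested, 0 were higher and 2 lower, with a median log2 fold change of -0.54 and a sum of 670, 684 and 594 CPM in Ha1 to Ha3 and 423, 435 and 443 in La1 to La3. ZBTB16 was the most counted of them, and the sums did not overlap.

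Genes of meiotic cells were scarce in both breeds. The 8 listed genes summed to 31.7, 35.6 and 19.9 CPM in Ha1 to Ha3 and 16.1, 14.1 and 12.7 in La1 to La3, with PIWIL1 the most counted, while the sums in Hb1 to Hb3 were 783, 676 and 651 CPM. Of the 8, 0 were called higher and 4 lower (SYCP2, HORMAD1, PIWIL1 and SYCP1), and the median log2 fold change was -0.89. HORMAD1, which marks unpaired chromosome axes, had 5.22, 4.58 and 2.60 CPM in Ha1 to Ha3 and 1.70, 1.36 and 0.795 in La1 to La3 (-1.69 ± 0.38 (SE, edgeR adjusted p = 0.0188)). SYCP1, a rod of the synaptonemal complex, had 2.15, 4.06 and 1.79 CPM in Ha1 to Ha3 and 1.27, 0.954 and 0.834 in La1 to La3 (-1.38 ± 0.39 (SE, edgeR adjusted p = 0.0420)). Each of the 4 calls was lost in several settings. For HORMAD1 it went with limma on log2(FPKM + 1) and without Ha1, Ha2, La2 or La3 (-1.72 to -0.86, adjusted p 0.0156 to 0.0638). For SYCP1 it went with limma on log2(FPKM + 1), with a replicate block and without Ha1, Ha2, La1, La2 or La3 (-1.56 to -0.38, adjusted p 0.0539 to 0.139). SYCP2 lost it in 6 and PIWIL1 in 7 of 15 settings. Spermatid genes gave 0 higher and 0 lower of 5 tested with edgeR, 0 at an unadjusted p under 0.05 and 0 called by DESeq2, and a median log2 fold change of 0.73. Their sums of 4.99, 5.54 and 6.48 CPM in Ha1 to Ha3 and 8.86, 7.73 and 4.41 in La1 to La3 overlapped, and SPACA1 was the most counted.

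Some genes of dividing cells were called lower in Landrace. MKI67, a protein of proliferating nuclei, had 154, 151 and 123 CPM in Ha1 to Ha3 and 71.0, 61.4 and 61.6 in La1 to La3. The groups did not overlap, and the log2 fold change was -1.14 ± 0.12 (SE, edgeR adjusted p = 0.00126). CCNA2, the cyclin of S phase and G2, had 16.2, 18.4 and 15.4 CPM in Ha1 to Ha3 and 8.23, 6.23 and 7.63 in La1 to La3 (-1.18 ± 0.16 (SE, edgeR adjusted p = 0.00322)), and its call was lost with all 12 libraries in one fit (-1.18, adjusted p = 0.361). CCNB1, the mitotic cyclin (-1.06 ± 0.11 (SE, edgeR adjusted p = 0.00157)), lost the call without La2 (-0.97, adjusted p = 0.00893). PLK1, a mitotic kinase, was called at -1.06 ± 0.14 (SE, edgeR adjusted p = 0.00282) and lost it with limma on log2(FPKM + 1) and without Ha2 (-0.98 to -0.89, adjusted p 0.00295 to 0.0122). RRM2, which supplies deoxynucleotides, was called at -1.36 ± 0.29 (SE, edgeR adjusted p = 0.0161) and not with limma on log2(FPKM + 1) and without La1 or La2 (-1.28 to -0.99, adjusted p 0.0122 to 0.0594). The helicase subunit MCM7 was not called (-0.06, adjusted p = 0.647), and MCM6 had -0.60, adjusted p = 0.00516 with no call. Of 27 cell cycle genes tested, 0 were higher and 5 lower, beside 3.60% and 4.01% of all genes, and the median was -0.60. The summed level was 1740, 1857 and 1620 CPM in Ha1 to Ha3 and 1426, 1159 and 1316 in La1 to La3, without overlap, and MCM7 was the most counted. Of spermatogonial genes 2 were called lower too, and the part of cell types in the difference was not tested.

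Most red cell genes tested were called lower in Landrace. SLC4A1, the anion exchanger of the red cell membrane, had 5.26, 5.26 and 7.26 CPM in Ha1 to Ha3 and 0.0848, 0.301 and 0.278 in La1 to La3, and every Hezuo boar was far above every Landrace boar (-4.72 ± 0.41 (SE, edgeR adjusted p = 0.000627)). AHSP, which stabilises alpha globin, had 3.72, 4.02 and 3.88 CPM in Ha1 to Ha3 and 0.509, 0.452 and 0.159 in La1 to La3 (-3.38 ± 0.40 (SE, edgeR adjusted p = 0.00206)). ALAS2, which starts haem synthesis in red cells, was called at -1.79 ± 0.39 (SE, edgeR adjusted p = 0.0165), a call lost without Ha1, Ha2 or La3 (-1.70 to -1.65, adjusted p 0.0506 to 0.0704). HBB, the most counted, ranged widely with 87.6, 122 and 33.8 CPM in Ha1 to Ha3 and 62.1, 21.3 and 20.0 in La1 to La3, overlapped and was not called (-1.24, adjusted p = 0.145). Of 6 erythroid genes tested, 0 were higher and 4 lower, with a median of -1.66. Their sum was 117, 154 and 59.1 CPM in Ha1 to Ha3 and 71.5, 25.3 and 25.4 in La1 to La3, which overlapped, and the part of blood in the tissue was not tested.

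Genes of lymphocytes were low, with 2 of 10 called for T and NK cells and 1 of 4 for B cells, beside 7.62% of all genes. CD3E, a chain of the T cell receptor complex, had 2.95, 2.57 and 3.96 CPM in Ha1 to Ha3 and 7.59, 8.14 and 6.32 in La1 to La3, without overlap (1.21 ± 0.22 (SE, edgeR adjusted p = 0.00938)). It lost the call with limma on log2(FPKM + 1) and with all 12 libraries in one fit (0.91 to 1.21, adjusted p 0.00476 to 0.149). CD2, an adhesion protein of T cells, was called at 1.42 ± 0.30 (SE, edgeR adjusted p = 0.0157) and lost that with all 12 libraries in one fit and without La3 (1.39 to 1.43, adjusted p 0.0583 to 0.161). The T and NK cell list gave 2 higher and 0 lower among 10 tested (median log2 fold change 0.51), a sum of 41.9, 37.3 and 38.4 CPM in Ha1 to Ha3 and 53.1, 59.8 and 49.9 in La1 to La3, and CD247 as the most counted (not called). The B and plasma cell list gave 1 higher and 0 lower among 4 tested (median log2 fold change 1.65) and a sum of 2.30, 1.93 and 5.08 CPM in Ha1 to Ha3 and 11.2, 7.28 and 10.6 in La1 to La3. Its most counted gene, JCHAIN, which joins antibody units, was at 0, 0.241 and 2.56 CPM in Ha1 to Ha3 and 6.83, 2.71 and 5.20 in La1 to La3 and was not called (2.39, adjusted p = 0.141).

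Mast cell genes split. FCER1A, a chain of the IgE receptor, had 1.27, 2.21 and 2.64 CPM in Ha1 to Ha3 and 0.382, 0.352 and 0.358 in La1 to La3, with each Hezuo boar higher (-2.47 ± 0.39 (SE, edgeR adjusted p = 0.00561)). HDC, which makes histamine, was called at -2.17 ± 0.52 (SE, edgeR adjusted p = 0.0231), and lost the call with limma on log2(FPKM + 1), with all 12 libraries in one fit and without Ha2, La1 or La3 (-2.16 to -0.54, adjusted p 0.0394 to 0.0928). MS4A2, another chain of the IgE receptor and the most counted, was not called (0.14, adjusted p = 0.762), and CPA3 was at 0. Of 3 tested, 0 were higher and 2 lower (median -2.17), with sums of 4.64, 9.60 and 9.86 CPM in Ha1 to Ha3 and 4.28, 5.58 and 4.49 in La1 to La3 that overlapped. Of Schwann cell genes, SOX10, a factor of this lineage, was called higher (1.05, adjusted p = 0.0256), but not in 8 of 15 settings. The list gave 1 higher and 1 lower of 4 tested and a median of 0.44, which changed sign in 1 setting, with MBP at 0. Its sum of 34.3, 33.0 and 32.6 CPM in Ha1 to Ha3 and 20.1, 19.9 and 19.3 in La1 to La3 was lower in Landrace, and S100B was the most counted.

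LPL, a lipase of fat cells that other cells also express, fell with 50.6, 45.5 and 63.8 CPM in Ha1 to Ha3 and 22.7, 25.7 and 28.5 in La1 to La3 (-1.06 ± 0.15 (SE, edgeR adjusted p = 0.00362)), and lost the call without Ha3 or La1 (-0.96 to -0.91, adjusted p 0.00438 to 0.0174). It made up most of the adipocyte list, of which 0 were higher and 1 lower of 3 tested (median -0.82), with sums of 52.7, 47.3 and 65.2 CPM in Ha1 to Ha3 and 24.1, 27.2 and 30.1 in La1 to La3. MYLPF, a light chain of fast muscle, was near the floor with 0.806, 1.04 and 1.01 CPM in Ha1 to Ha3 and 0.0848, 0.201 and 0.0397 in La1 to La3. It was called at -3.14 ± 0.55 (SE, edgeR adjusted p = 0.00775) and lost that with limma on log2(FPKM + 1) (-0.97, adjusted p = 0.000961). Skeletal muscle genes gave 0 higher and 1 lower of 5 tested and a median of -0.58, which changed sign in 1 setting. Their sums of 5.98, 11.2 and 15.4 CPM in Ha1 to Ha3 and 9.12, 11 and 11.5 in La1 to La3 overlapped, and CKM was the most counted. Of rete and epididymal epithelium, 2 genes were tested, 0 called in either direction by edgeR, 0 at an unadjusted p under 0.05 and 0 called by DESeq2, with a median of -0.19, sums of 9.01, 8.31 and 13.1 CPM in Ha1 to Ha3 and 7.21, 8.84 and 6.48 in La1 to La3, KRT19 the most counted and RNASE9 at 0. Whether tissue other than testis took part in any difference was not tested.

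Small lists of supporting tissue and macrophages held no calls, beside 7.62% of all genes. Of 11 peritubular and stromal genes tested, edgeR called 0, with 5 at an unadjusted p under 0.05 and 0 called by DESeq2. Their median was 0.12 and their sum 982, 981 and 1177 CPM in Ha1 to Ha3 and 1272, 1191 and 1347 in La1 to La3, without overlap, led by PDGFRA, a growth factor receptor of stroma (0.33, adjusted p = 0.0436). Of 12 endothelial genes edgeR called 0, with 3 at an unadjusted p under 0.05 and 0 called by DESeq2, a median of -0.15 and sums of 939, 932 and 864 CPM in Ha1 to Ha3 and 1061, 857 and 1017 in La1 to La3 that overlapped, led by VWF, a clotting protein of vessel walls (0.36, adjusted p = 0.0552). Of 9 macrophage genes edgeR called 0, with 1 at an unadjusted p under 0.05 and 0 called by DESeq2, a median of -0.13 and sums of 541, 444 and 413 CPM in Ha1 to Ha3 and 450, 419 and 422 in La1 to La3 that overlapped, led by C1QC, a subunit of complement C1q (-0.13, adjusted p = 0.470).

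Interferon-stimulated genes had the largest median of the pathway lists with more than 1 gene tested. Of 28 tested, 6 were called higher and 0 lower, the median log2 fold change was 0.87, and 18 had an unadjusted p under 0.05 (36.4% over all genes). IFI6, an interferon-induced mitochondrial protein and the most counted of the list, had 338, 155 and 231 CPM in Ha1 to Ha3 and 920, 588 and 603 in La1 to La3. Every Landrace boar was above every Hezuo boar (1.54 ± 0.29 (SE, edgeR adjusted p = 0.00981)). OAS2, which senses double-stranded RNA, had 19.7, 11.7 and 15.5 CPM in Ha1 to Ha3 and 69.0, 36.0 and 48.9 in La1 to La3, without overlap (1.71 ± 0.27 (SE, edgeR adjusted p = 0.00516)). GBP1, a GTPase induced by interferon gamma, was called at 1.05 ± 0.13 (SE, edgeR adjusted p = 0.00253) and lost that with limma on log2(FPKM + 1), with all 12 libraries in one fit and without Ha2 or La1 (0.94 to 1.05, adjusted p 0.00223 to 0.0667). IFIT2, IFI44L and XAF1 were called as well, but not in 5, 4 and 4 of 15 settings. MX1, an antiviral GTPase, varied among boars of each breed with 115, 27.3 and 67.5 CPM in Ha1 to Ha3 and 207, 94.9 and 131 in La1 to La3, overlapped and was not called (1.04, adjusted p = 0.158). ISG15, a ubiquitin-like modifier, did the same (0.98, adjusted p = 0.282). The list summed to 1439, 866 and 1066 CPM in Ha1 to Ha3 and 2654, 1762 and 2108 in La1 to La3, higher in each Landrace boar.

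Chemokine genes included several called higher. CXCL10, which interferon gamma induces and which draws T cells, had 18, 20.3 and 30.4 CPM in Ha1 to Ha3 and 80.0, 60.4 and 80.2 in La1 to La3. The Landrace boars were all higher (1.68 ± 0.21 (SE, edgeR adjusted p = 0.00235)). CXCL12, a stromal chemokine and the most counted of its list, had 43.1, 29.7 and 41.3 CPM in Ha1 to Ha3 and 91.2, 86.3 and 101 in La1 to La3 (1.29 ± 0.15 (SE, edgeR adjusted p = 0.00191)). Of 23 chemokine and interleukin genes tested, 6 were higher and 0 lower (CXCL12, CXCL10, CCR2, CXCL16 and CCL5 among them, the last 3 of which lost the call in 6, 2 and 8 of 15 settings), with a median of 0.50 and sums of 255, 223 and 240 CPM in Ha1 to Ha3 and 408, 380 and 415 in La1 to La3. CCL3L1 was at 0.

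Antigen presentation genes of class I differed by copy. SLA-1 (chromosome 7, 22824137 to 22920154) had 437, 335 and 356 CPM in Ha1 to Ha3 and 68.7, 106 and 108 in La1 to La3 and was lower in each Landrace boar (-2.0 ± 0.19 (SE, edgeR adjusted p = 0.000942)). SLA-3 (chromosome 7, 22938211 to 22942735) had 42, 59.7 and 67.3 CPM in Ha1 to Ha3 and 293, 281 and 311 in La1 to La3 and was higher in each (2.39 ± 0.17 (SE, edgeR adjusted p = 0.000332)). SLA-2, whose annotated span overlaps both, was not called (-0.70, adjusted p = 0.202). These are highly similar and variable genes, and their sum of 930, 595 and 630 CPM in Ha1 to Ha3 against 476, 616 and 607 in La1 to La3 overlapped, so the division of reads among them is uncertain. TAP1, which carries peptides to class I, was called at 1.03 ± 0.12 (SE, edgeR adjusted p = 0.00188) and lost that with library sizes in place of TMM, with limma on log2(FPKM + 1), with limma on log2(FPKM + 0.1) and without Ha2 or La1 (0.95 to 0.99, adjusted p 0.00137 to 0.00842). Of 14 class I genes tested, 3 were higher and 1 lower, with B2M (1.03, adjusted p = 0.00451) the third higher call, lost in 7 of 15 settings, a second B2M entry not called, a median of 0.22 and sums of 1237, 899 and 968 CPM in Ha1 to Ha3 and 932, 1075 and 1033 in La1 to La3 that overlapped. Of 10 class II genes, edgeR called 0, with 7 at an unadjusted p under 0.05 and 0 called by DESeq2, a median of 0.38 and sums of 819, 901 and 776 CPM in Ha1 to Ha3 and 1124, 1024 and 1014 in La1 to La3, higher in each Landrace boar. CD74, the invariant chain and most counted, was 0.51, adjusted p = 0.00942.

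Complement genes gave 0 higher and 1 lower of 21 tested and a median of 0.18. CLU, a chaperone that Sertoli cells secrete, held most of the list's counts with 8732, 7464 and 7971 CPM in Ha1 to Ha3 and 12088, 10978 and 10932 in La1 to La3, apart between breeds but under the limit (0.49 ± 0.09 (SE, edgeR adjusted p = 0.0109)). MASP1, a protease of the lectin pathway, was called lower (-1.15, adjusted p = 0.0488), but not in 9 of 15 settings. The list summed to 10826, 9041 and 10202 CPM in Ha1 to Ha3 and 14554, 13110 and 13285 in La1 to La3.

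Among signals of the TGF-beta family, 5 of 30 genes tested were higher and 2 lower, with a median of 0.22, led by INHA. ACVRL1, a type I receptor, had 28.9, 29.4 and 33.2 CPM in Ha1 to Ha3 and 55.9, 71.3 and 69.9 in La1 to La3 (1.10 ± 0.12 (SE, edgeR adjusted p = 0.00173)), and lost the call with limma on log2(FPKM + 1) (0.97, adjusted p = 0.00194). The inhibitory SMAD genes SMAD6 (1.05, adjusted p = 0.00451) and SMAD7 (1.07, adjusted p = 0.00514) were called with it. SMAD6 lost the call in 2 and SMAD7 in 3 of 15 settings. BMP7, a ligand of the family, fell with 18.9, 19.4 and 11 CPM in Ha1 to Ha3 and 5.47, 7.89 and 6.20 in La1 to La3 (-1.34 ± 0.26 (SE, edgeR adjusted p = 0.0105)). BMP2 was called lower too (-1.02, adjusted p = 0.0278), but not in 8 of 15 settings.

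WNT genes gave 3 higher and 1 lower of 36 tested and a median of 0.08. WIF1, a secreted WNT inhibitor, had 17.5, 18.2 and 12.0 CPM in Ha1 to Ha3 and 2.08, 3.11 and 3.85 in La1 to La3, each Hezuo boar far above each Landrace boar (-2.40 ± 0.27 (SE, edgeR adjusted p = 0.00189)). LGR5, which strengthens WNT signals, had 2.84, 6.14 and 8.93 CPM in Ha1 to Ha3 and 16.2, 21.9 and 22.4 in La1 to La3 (1.76 ± 0.36 (SE, edgeR adjusted p = 0.0140)). Its call was lost without La2 or La3 (1.68 to 1.71, adjusted p 0.0506 to 0.0564). The ligand WNT6 had 6.21, 3.89 and 9.51 CPM in Ha1 to Ha3 and 21.8, 17.1 and 16.7 in La1 to La3 (1.5 ± 0.30 (SE, edgeR adjusted p = 0.0121)). TCF7, a nuclear factor of the pathway, was called higher (1.12, adjusted p = 0.0118), but not in 3 of 15 settings. DKK3, the most counted, was not called, and Ha3 stood apart at 299 CPM beside 112 in Ha1 and 119 in Ha2.

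Notch genes gave 2 higher and 0 lower of 16 tested and a median of 0.09, which changed sign in 1 setting. DLL3, a ligand that dampens Notch within the cell, had 21.7, 33.2 and 38.2 CPM in Ha1 to Ha3 and 72.2, 85.8 and 77.3 in La1 to La3 (1.34 ± 0.19 (SE, edgeR adjusted p = 0.00412)). HEY2, a target of the pathway, was called at 1.38 ± 0.26 (SE, edgeR adjusted p = 0.0105) and lost that with all 12 libraries in one fit (1.38, adjusted p = 0.104). NOTCH2, the most counted, was 0.71, adjusted p = 0.00693 without a call. Of 9 hedgehog genes, edgeR called 0, with 3 at an unadjusted p under 0.05 and 0 called by DESeq2, a median of 0.21, led by the receptor PTCH1.

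Growth factor genes included IGF2, a fetal growth factor expressed from the paternal allele, with 51.7, 58.5 and 55.5 CPM in Ha1 to Ha3 and 93.9, 125 and 123 in La1 to La3. All Landrace boars were above all Hezuo boars (1.04 ± 0.12 (SE, edgeR adjusted p = 0.00216)), and the call was lost with limma on log2(FPKM + 1) and without Ha1, La2 or La3 (0.97 to 1.0, adjusted p 0.00295 to 0.0138). PAPPA, a protease that frees IGF from its binding proteins, had 117, 80.9 and 112 CPM in Ha1 to Ha3 and 48.9, 16.5 and 23.3 in La1 to La3 and was lower in Landrace, with La1 nearest to Hezuo (-1.80 ± 0.36 (SE, edgeR adjusted p = 0.0127)). Its call was lost without La3 (-1.64, adjusted p = 0.0602). The IGF and growth hormone list gave 1 higher and 1 lower of 15 tested and a median of -0.07, which changed sign in 1 setting. In it, IGF2R was the most counted and IGFBP5 was at 0. PEG10, a paternally expressed gene derived from a retrotransposon, fell with 175, 158 and 144 CPM in Ha1 to Ha3 and 73.2, 74.8 and 76.8 in La1 to La3 (-1.09 ± 0.09 (SE, edgeR adjusted p = 0.000627)). Imprinted growth genes gave 1 higher and 1 lower of 16 tested and a median of 0.04, which changed sign in 7 settings, led by GNAS.

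Gonadal transcription factors gave 0 higher and 3 lower of 19 tested and a median of 0.07, which changed sign in 1 setting. NR5A1, which drives steroid genes and was the most counted, was not called (0.08, adjusted p = 0.514). NR0B1, an X-linked repressor of NR5A1, had 9.24, 10 and 7.10 CPM in Ha1 to Ha3 and 4.79, 3.47 and 3.18 in La1 to La3 (-1.21 ± 0.23 (SE, edgeR adjusted p = 0.0105)), and lost the call with limma on log2(FPKM + 1) (-0.94, adjusted p = 0.00566). SIX4 was called lower (-1.35, adjusted p = 0.0282), but not in 6 of 15 settings.

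Genes that make or bind retinoic acid, which starts germ cell differentiation, gave 1 higher and 4 lower of 16 tested, with a median of -0.39, led by RXRA. ALDH1A1, a synthesising enzyme, had 88.5, 111 and 88.8 CPM in Ha1 to Ha3 and 51.4, 29.6 and 47.1 in La1 to La3 (-1.17 ± 0.20 (SE, edgeR adjusted p = 0.00736)), and lost the call without La2 (-0.96, adjusted p = 0.0131). ALDH1A3, a second such enzyme, went the opposite way with 34.0, 34.7 and 50.9 CPM in Ha1 to Ha3 and 101, 78.4 and 92.4 in La1 to La3 (1.18 ± 0.17 (SE, edgeR adjusted p = 0.00412)). CRABP1, a binding protein of retinoic acid that spermatogonia express, had 60.3, 49.9 and 29.7 CPM in Ha1 to Ha3 and 15.7, 16.5 and 15.9 in La1 to La3, with Ha3 the lowest Hezuo boar (-1.54 ± 0.24 (SE, edgeR adjusted p = 0.00512)). CRABP2 (-2.86, adjusted p = 0.0197) and RXRG (-1.18, adjusted p = 0.0450) were lower as well. They lost the call in 3 and 7 of 15 settings.

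Collagens and matrix proteins gave 2 higher and 2 lower of 32 tested, with a median of 0.32, and 19 had an unadjusted p under 0.05 (36.4% over all genes). Their sums were 9620, 9585 and 10347 CPM in Ha1 to Ha3 and 14002, 12521 and 15132 in La1 to La3, all higher in Landrace. COL18A1, the basement membrane collagen that yields endostatin, had 97.9, 127 and 196 CPM in Ha1 to Ha3 and 494, 532 and 541 in La1 to La3 (1.90 ± 0.23 (SE, edgeR adjusted p = 0.00213)). COL3A1, a fibrillar collagen and the most counted, was 0.61, adjusted p = 0.00742 without a call. COL5A1, which starts collagen fibrils, had 3.34, 6.95 and 1.82 CPM in Ha1 to Ha3 and 16.2, 26.6 and 19.9 in La1 to La3 (2.36 ± 0.44 (SE, edgeR adjusted p = 0.00964)). TNC was called lower (-1.06, adjusted p = 0.0118), but not in 3 of 15 settings. An assembled locus named COL6A1 had 0 counts in each Landrace library and 1.65, 2.21 and 2.48 CPM in Ha1 to Ha3, at least 14-fold lower in Landrace. COL6A2, another collagen VI chain, had 444, 432 and 639 CPM in Ha1 to Ha3 and was not called (0.72, edgeR adjusted p = 0.0140). COL6A3 was not called either (0.74, edgeR adjusted p = 0.00468). The low locus may not hold the whole COL6A1 gene, so its counts need not give the level of that gene. Outside the list, COL9A2, a chain of cartilage-type collagen, had 144, 201 and 503 CPM in Ha1 to Ha3 and 1583, 2031 and 1874 in La1 to La3. The Landrace boars were far higher and Ha3 was the highest Hezuo boar (2.70 ± 0.43 (SE, edgeR adjusted p = 0.00552)). COL2A1, the main collagen of cartilage, fell with 16.3, 13.0 and 16.8 CPM in Ha1 to Ha3 and 1.15, 0.653 and 0.834 in La1 to La3 (-4.11 ± 0.25 (SE, edgeR adjusted p = 0.000178)). AGRN, a proteoglycan of basement membranes, fell with 406, 331 and 485 CPM in Ha1 to Ha3 and 8.31, 13.0 and 12.2 in La1 to La3 (-5.19 ± 0.22 (SE, edgeR adjusted p = 3.73e-05)).

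Junction genes of the blood-testis barrier gave 0 higher and 2 lower of 19 tested and a median of -0.02, which changed sign in 3 settings. F11R, a junctional adhesion molecule, had 32.5, 30.3 and 24.5 CPM in Ha1 to Ha3 and 16.0, 9.94 and 12.4 in La1 to La3 (-1.19 ± 0.19 (SE, edgeR adjusted p = 0.00608)). ESPN, an actin-bundling protein of ectoplasmic specialisations, varied in Hezuo from 29.4 CPM in Ha3 to 155 in Ha2, against 24.5, 24.7 and 24.3 in La1 to La3. It was called (-1.95, adjusted p = 0.0289), but not in 8 of 15 settings. CTNNB1, the most counted, was not called (-0.02, adjusted p = 0.901).

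Lists of glycolysis, hypoxia and antioxidant genes had medians near 0, over members that went both ways. HK2, the hexokinase of highly glycolytic cells, had 62.8, 62.0 and 46.7 CPM in Ha1 to Ha3 and 13.7, 10 and 11.6 in La1 to La3, with no overlap (-2.28 ± 0.17 (SE, edgeR adjusted p = 0.000352)). The glycolysis list gave 0 higher and 2 lower of 24 tested, with 15 at an unadjusted p under 0.05 (36.4% over all genes) and a median of -0.15, led by ENO1. Its other call was an LDHB copy on chromosome 2 (chromosome 2, 12988754 to 12990033) with 0 counts in each Landrace library and 3.57, 3.93 and 5.40 CPM in Ha1 to Ha3, at least 28-fold lower. The LDHB gene on chromosome 5 was 0.49, adjusted p = 0.0213 and not called. Of 14 hypoxia genes edgeR called 0, with 4 at an unadjusted p under 0.05 and 0 called by DESeq2, a median of -0.14, led by HIF1A. NQO1, a quinone reductase, fell with 537, 378 and 535 CPM in Ha1 to Ha3 and 264, 162 and 212 in La1 to La3 (-1.19 ± 0.20 (SE, edgeR adjusted p = 0.00647)), and lost the call with all 12 libraries in one fit (-1.18, adjusted p = 0.156). SOD3, the extracellular superoxide dismutase, was called at 1.09 ± 0.17 (SE, edgeR adjusted p = 0.00512), and lost that with all 12 libraries in one fit and without Ha1 (0.92 to 1.09, adjusted p 0.00828 to 0.162). Antioxidant and detoxification enzymes gave 1 higher and 2 lower among 24 tested (median log2 fold change -0.13), with 12 at an unadjusted p under 0.05, led by PRDX3.

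HSPB8, a small heat shock protein, had 12.6, 14.1 and 12.6 CPM in Ha1 to Ha3 and 45, 51.5 and 55.9 in La1 to La3, each Landrace boar far above Hezuo (1.96 ± 0.12 (SE, edgeR adjusted p = 0.000191)). Heat shock genes gave 1 higher and 0 lower of 18 tested, with 13 at an unadjusted p under 0.05 (36.4% over all genes). Their median was -0.21, and HSPA8, the most counted, was not called (-0.48, adjusted p = 0.0218). FOSB, an immediate early gene, was called lower (-2.14, adjusted p = 0.0256), but not in 6 of 15 settings. Immediate early genes gave 0 higher and 1 lower of 21 tested and a median of 0.01, which changed sign in 6 settings, led by DUSP1.

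Cytosolic ribosomal protein genes had a median of 0.40 over 82 tested, with 60 at an unadjusted p under 0.05 (36.4% over all genes), 2 called higher and 2 lower. They summed to 31720, 31336 and 36182 CPM in Ha1 to Ha3 and 47234, 47238 and 41137 in La1 to La3, higher in each Landrace boar, and RPLP0 was the most counted. RPS4X is described below. The other 3 calls were assembled copies or low members: RPL10 at an assembled locus (2.47, adjusted p = 0.0205), RPL10L (-1.30, adjusted p = 0.0416), and RPL9 at an assembled locus, with 208, 160 and 331 counts in Ha1 to Ha3 and 1, 0 and 0 in La1 to La3. RPL10 at the assembled locus lost the call in 4 and RPL10L in 7 of 15 settings. Reads of ribosomal protein copies cannot be placed with certainty. In this list 5 entries were at 0 in each of the 6 libraries, among them the only entry of RPL11. An entry at 0 here or in another list therefore need not mean that the gene is silent. Nuclear subunits of oxidative phosphorylation gave 1 higher and 1 lower among 67 tested (median log2 fold change -0.20), led by ATP5B. NDUFB7, a complex I subunit, was called at -1.13 ± 0.18 (SE, edgeR adjusted p = 0.00538), and lost that without La3 (-0.98, adjusted p = 0.0207). NDUFV3, another, was called at 1.05 ± 0.09 (SE, edgeR adjusted p = 0.000695), and lost that with limma on log2(FPKM + 1) and with limma on log2(FPKM + 0.1) (0.38 to 0.39, adjusted p 0.0133 to 0.0134). Of 13 subunits encoded by mitochondrial DNA edgeR called 0, with 3 at an unadjusted p under 0.05 and 0 called by DESeq2, a median of -0.07 that changed sign in 1 setting, and sums of 13746, 14358 and 14407 CPM in Ha1 to Ha3 and 13332, 11018 and 10376 in La1 to La3, led by COX1.

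**Figure D2:**
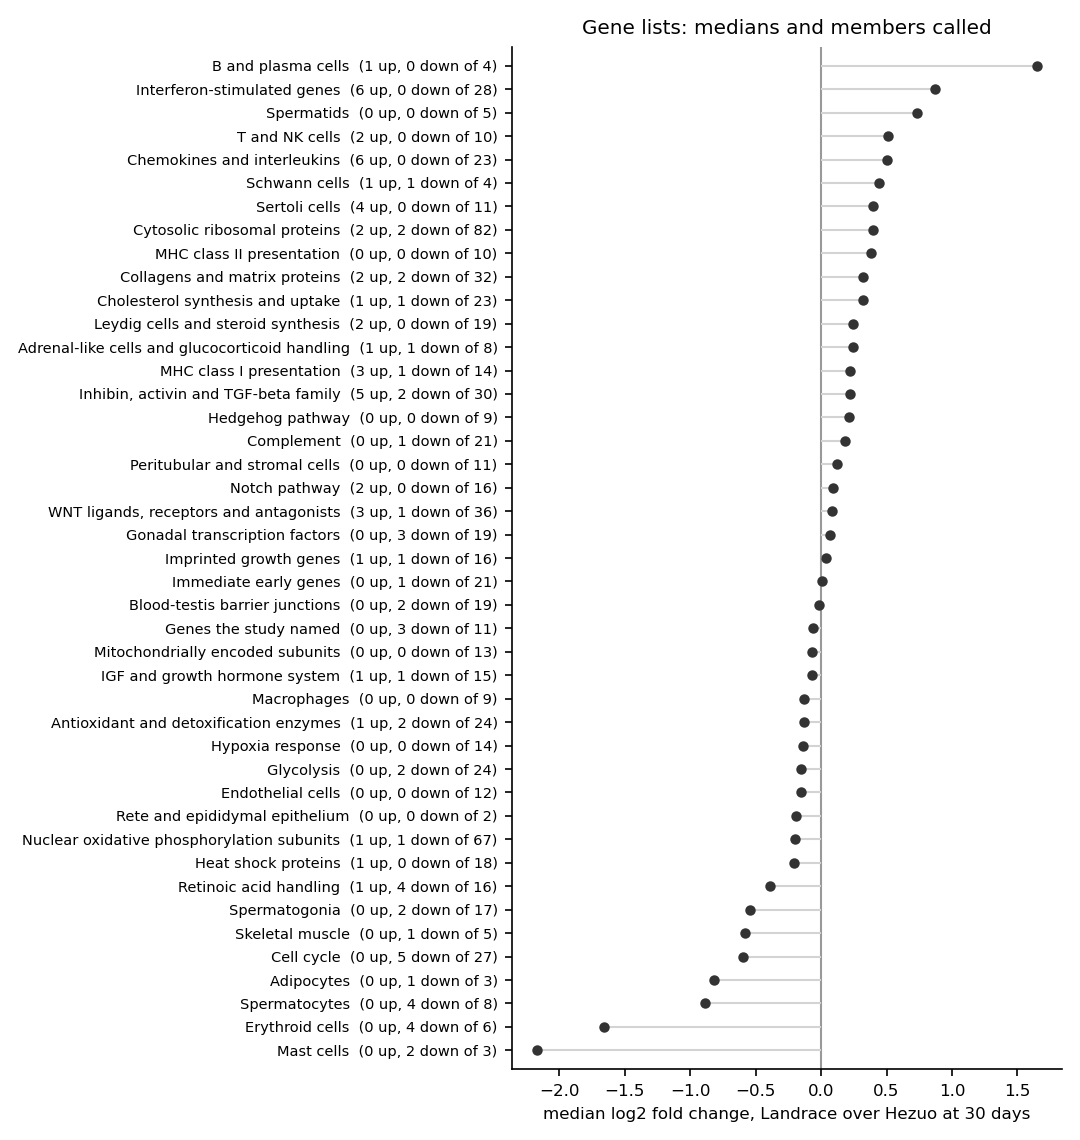
Median log2 fold change (Landrace over Hezuo, x axis) of each of 43 gene lists, with the numbers of members called higher and lower beside each; the Y-linked list with 1 gene is not drawn. Interferon-stimulated genes lie at 0.87 and cell cycle genes at -0.60, while the median over all genes tested is 0.00.

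The smallest adjusted p values among genes seen in both breeds belonged to genes of varied function. RPS4X, a ribosomal protein gene of the X chromosome (chromosome X, 58149302 to 58155179), had 29.8, 19.5 and 20.1 CPM in Ha1 to Ha3 and 2243, 1952 and 1939 in La1 to La3. The breeds differed throughout, by 6.46 ± 0.21 (SE, edgeR adjusted p = 7.15e-06). Its FPKM averaged 12.9 in Ha and 1114 in La. The median of the cytosolic ribosomal protein list, which holds RPS4X, was 0.40. Reads of ribosomal protein copies cannot be placed with certainty. Whether RPS4X reads of Hezuo boars were counted at another locus was not tested. HP, the haemoglobin scavenger haptoglobin (chromosome 6, 14980382 to 14985245), had 52.2, 64.6 and 51.8 CPM in Ha1 to Ha3 and 2.50, 2.41 and 2.07 in La1 to La3 and was low in all Landrace boars (-4.60 ± 0.15 (SE, edgeR adjusted p = 7.43e-06)). TMSB15A, a thymosin that binds actin (chromosome X, 83744536 to 83747599), had 3.61, 6.50 and 4.27 CPM in Ha1 to Ha3 and 108, 97.9 and 95.6 in La1 to La3 (4.39 ± 0.21 (SE, edgeR adjusted p = 9.51e-05)). CTGF, a matricellular protein (chromosome 1, 31674398 to 31677697), had 97.3, 109 and 121 CPM in Ha1 to Ha3 and 26.5, 29.0 and 28.7 in La1 to La3 (-1.96 ± 0.10 (SE, edgeR adjusted p = 0.000126)). ITPR3, a calcium channel of the endoplasmic reticulum (chromosome 7, 29835922 to 29901305), had 137, 141 and 109 CPM in Ha1 to Ha3 and 3.44, 6.83 and 3.30 in La1 to La3 (-4.86 ± 0.28 (SE, edgeR adjusted p = 0.000178)).

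Others with small adjusted p were FOXRED2 (2.63, adjusted p = 0.000178), CCDC12 (3.43, adjusted p = 0.000145), IGSF3 (2.01, adjusted p = 0.000178), CLN8 (1.73, adjusted p = 0.000178) and LY6G6F (3.58, adjusted p = 0.000186), all higher in Landrace, and MFAP3L (-3.50, adjusted p = 0.000259), CNKSR3 (-1.57, adjusted p = 0.000344) and GGT1 (-1.31, adjusted p = 0.000348), all lower. FOXRED2 takes part in disposal of misfolded proteins, CLN8 in export of lysosomal enzymes, and GGT1 in glutathione turnover. Among highly counted genes, PLTP, which transfers phospholipids, had 1383, 2955 and 2168 CPM in Ha1 to Ha3 and 804, 746 and 759 in La1 to La3, with Hezuo boars ranging widely above a tight Landrace group (-1.5 ± 0.24 (SE, edgeR adjusted p = 0.00561)). TKTL1, a transketolase-like gene on the X chromosome, fell with 1256, 1227 and 968 CPM in Ha1 to Ha3 and 531, 536 and 522 in La1 to La3 (-1.12 ± 0.11 (SE, edgeR adjusted p = 0.00126)). SELENBP1, a selenium-binding protein, fell with 1175, 944 and 1441 CPM in Ha1 to Ha3 and 475, 502 and 496 in La1 to La3 (-1.27 ± 0.14 (SE, edgeR adjusted p = 0.00183)). APOA1, the main protein of high-density lipoprotein, rose with 463, 488 and 570 CPM in Ha1 to Ha3 and 1089, 1167 and 986 in La1 to La3 (1.09 ± 0.10 (SE, edgeR adjusted p = 0.00100)) and was singled out after its values were seen.

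In 40 of the 1192 called genes (3.36%) one breed was at the floor, Ha in 17 and La in 23. Of the 17, 8 were above the floor in at least 1 library of Hb, and of the 23, 16 in at least 1 library of Lb. SURF4, a cargo receptor of the early secretory pathway (chromosome 1, 272975164 to 272988683), had 0 counts in Ha1, Ha2 and Ha3 and 8528, 6361 and 8215 counts in La1 to La3, at least 2788-fold higher (adjusted p = 6.24e-06). At 120 days, this entry held 285, 7.24 and 121 CPM in Hb1 to Hb3, and Hb2 was the low one. IFI30, a thiol reductase of antigen-presenting cells (chromosome 2, 59629762 to 59633714), had 0 counts in each Hezuo boar of 30 days and 31.6, 19 and 31.4 CPM in La1 to La3, at least 227-fold higher. It was also at 0 in Hb1 to Hb3, and in Lb it had 15.6, 22.0 and 0 CPM. WWC3, a scaffold protein gene on the X chromosome (chromosome X, 6815648 to 6930939), had 61.5, 45.5 and 48.0 CPM in Ha1 to Ha3 and 0 counts in each of La1 to La3, at least 342-fold lower. It was present in 1 Landrace boar of 120 days, with 0, 111 and 0 CPM in Lb1 to Lb3. For SURF4, IFI30 and WWC3 too, an entry at 0 need not mean that the gene is silent. Whether their reads were counted at another locus was not tested.

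With few counts, GLYATL2 had 2, 0 and 3 counts in Ha1 to Ha3 and 31, 51 and 56 in La1 to La3 (adjusted p = 0.00315), the assembled antibody locus IGKV1-39 had 2, 3 and 1 counts in Ha1 to Ha3 and 36, 18 and 29 in La1 to La3, and ADAM5 had 0, 1 and 0 counts in Ha1 to Ha3 and 20, 10 and 36 in La1 to La3, all 3 higher in Landrace. GLYATL2 and ADAM5 each lost the call with limma on log2(FPKM + 1). ERV3-1, an assembled locus named after an endogenous retrovirus, was lower, with 109, 191 and 14 counts in Ha1 to Ha3 and 3 in each of La1 to La3, and lost its call with limma on log2(FPKM + 1) and without La2 or La3 (adjusted p 0.0501 to 0.0697).

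Neighbouring copies shifted against each other at RDH16, a retinol and steroid dehydrogenase on chromosome 5 (chromosome 5, 22251751 to 22266801). RDH16 had 213, 155 and 168 CPM in Ha1 to Ha3 and 2, 0 and 3 counts in La1 to La3, all lower in Landrace (adjusted p = 6.24e-06). LOC100512656, the next copy (chromosome 5, 22277006 to 22285534), had 11.8, 10.8 and 10.4 CPM in Ha1 to Ha3 and 123, 72.9 and 72.8 in La1 to La3 (3.02 ± 0.22 (SE, edgeR adjusted p = 0.000350)), a call lost with all 12 libraries in one fit (3.02, adjusted p = 0.0660). LOC100626199, after it, had 131, 125 and 121 CPM in Ha1 to Ha3 and 367, 232 and 206 in La1 to La3 (1.09 ± 0.20 (SE, edgeR adjusted p = 0.00898)), and lost the call with limma on log2(FPKM + 1), with limma on log2(FPKM + 0.1), with all 12 libraries in one fit and without La1 (0.63 to 1.10, adjusted p 0.00585 to 0.166). Summed over the 3 copies, the levels were 356, 291 and 299 CPM in Ha1 to Ha3 and 490, 305 and 279 in La1 to La3, and overlapped. The copies were looked at after RDH16 was seen, and the assignment of reads to each is uncertain.

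Of the 10 listed Y-linked genes, 1 was in the table. SRY, the testis-determining gene, had 0 counts in each Hezuo library and 16, 14 and 15 in La1 to La3, at least 5-fold higher, with the list's median of 2.45 at that bound, and 1 called higher and 0 lower. Its call was lost with limma on log2(FPKM + 1), where the fold stayed under the limit (adjusted p = 0.000271). A near copy on the same chromosome, LOC106504154, had 25, 17 and 12 counts in Ha1 to Ha3 and 4, 6 and 7 in La1 to La3. The copies together held 25, 17 and 12 counts in Ha1 to Ha3 and 20, 20 and 22 in La1 to La3, so SRY-like reads were present in all 6 boars.

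**Figure D3:**
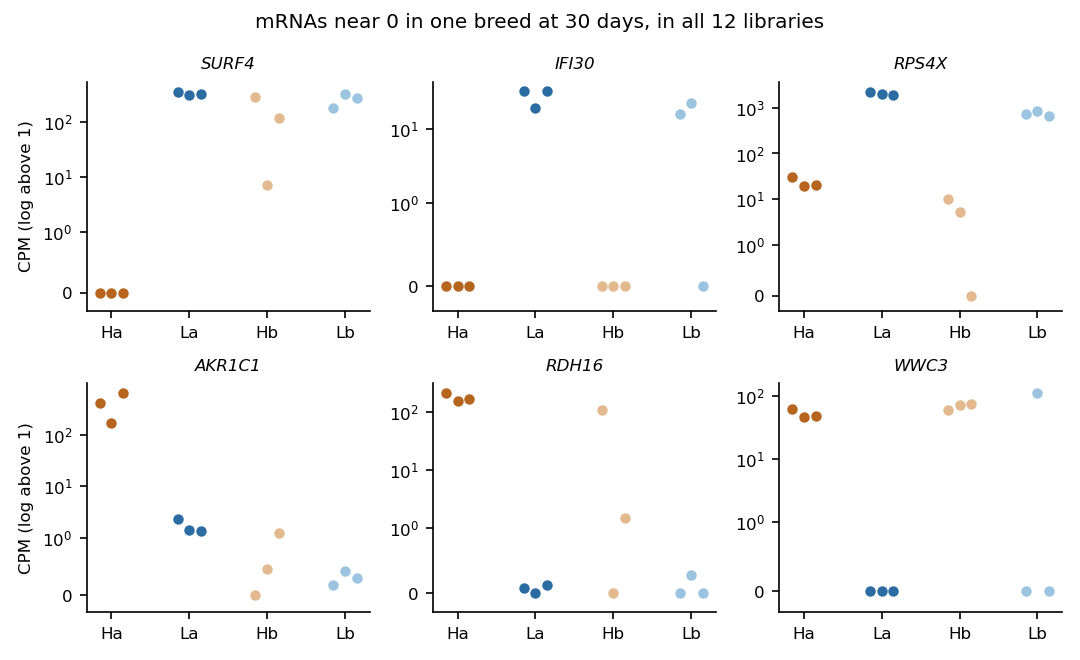
CPM of SURF4, IFI30, RPS4X, AKR1C1, RDH16 and WWC3 in all 12 libraries, 1 dot per boar, on an axis that is linear near 0 and logarithmic above. SURF4 is at 0 in Ha1 to Ha3 and between 319 and 362 CPM in La1 to La3, and RDH16 is between 155 and 213 CPM in Ha1 to Ha3.

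Calls were spread over all autosomes, at 979 of 14457 tested (6.77%), from 4.55% on chromosome 11 to 9.16% on chromosome 7 and 8.84% on chromosome 8. The X chromosome had 83 of 600 (13.8%), with 38 higher in Landrace and 45 lower. In the comparison of Lb with Hb, which uses other boars, the X share was 6.15% and the autosomal share 3.32%. Along X in windows of 5 Mb, 9 of 41 genes tested were called between 55 and 60 Mb, which holds RPS4X (22.0%), and 13 of 51 between 80 and 85 Mb, which holds TMSB15A (25.5%). Other windows reached such shares, among them 20 to 25 Mb with 5 of 17 (29.4%), all lower. On Y, 7 of 28 were called (25.0%), with 4 higher and 3 lower, and on unplaced sequence 32 of 254 (12.6%). Genes from the assembly with no place in the annotation were called more often, at 91 of 296 (30.7%), than annotated genes, at 1101 of 15352 (7.17%).

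**Figure D4:**
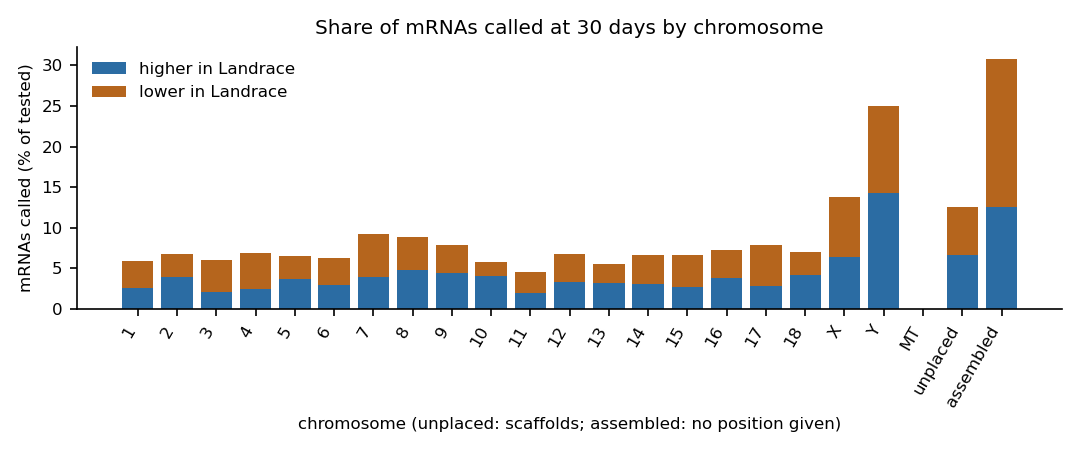
Percent of the genes tested on each chromosome that were called between 30-day-old Landrace and Hezuo boars, stacked by direction. The X chromosome reaches 13.8% and the autosomes together 6.77%.

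Of the 3 Y-linked calls lower in Landrace, the most counted were LOC100624648 with 23.2, 21.9 and 19.2 CPM in Ha1 to Ha3 and 2.25, 3.16 and 1.59 in La1 to La3 (-3.21 ± 0.25 (SE, edgeR adjusted p = 0.000469)) and LOC110257929 with 47.6, 47.4 and 26.1 CPM in Ha1 to Ha3 and 8.74, 11.7 and 14.7 in La1 to La3 (-1.79 ± 0.28 (SE, edgeR adjusted p = 0.00515)), with each Landrace boar under each Hezuo boar. SRY was among the 4 higher.

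Among lncRNAs, 46 of the 133 calls (34.6%) had a breed at the floor, Ha in 20 and La in 26. Over calls with neither group at the floor the median size of the log2 fold change was 2.25. Annotated transcripts were called in 84 of 1754 cases (4.79%) and assembled ones in 49 of 342 (14.3%). Of assembled transcripts, calls were made in 6 of 42 inside introns (0 higher, 6 lower), 17 of 109 between genes (8 higher, 9 lower), 10 of 87 that share a splice junction with an annotated transcript (3 higher, 7 lower), 11 of 43 that overlap one otherwise (6 higher, 5 lower) and 5 of 61 on the opposite strand (4 higher, 1 lower). With a replicate block, 9 lncRNAs were called, and leaving out La3 gave 47, La2 50, Ha1 52, Ha2 52 and La1 67.

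LOC106504562 (transcript XR_002345763.1, chromosome 7, 46553813 to 46567596) had 18002, 47473 and 25599 CPM in Ha1 to Ha3 and 61.1, 105 and 161 in La1 to La3 on the scale of the lncRNA table. It was the most counted of the named lncRNAs in Hezuo and low in each Landrace boar (-8.18 ± 0.61 (SE, edgeR adjusted p = 0.00145)). It lies between GSTA1 and LOC100526118, members of a glutathione transferase cluster. GSTA1 was not called (-0.01, adjusted p = 0.984), while LOC100526118 had 6.48, 82.8 and 16.7 CPM in Ha1 to Ha3 and 389, 208 and 268 in La1 to La3 and was higher in Landrace (3.03 ± 0.81 (SE, edgeR adjusted p = 0.0337)). Its call was lost with limma on log2(FPKM + 0.1), with all 12 libraries in one fit and without Ha3, La1, La2 or La3 (2.69 to 3.70, adjusted p 0.0516 to 0.151). LOC100627868 (XR_300503.3, chromosome 17, 50958841 to 50963160) had 455, 450 and 596 CPM in Ha1 to Ha3 and 4120, 3109 and 4105 in La1 to La3 and was higher in each Landrace boar (2.88 ± 0.22 (SE, edgeR adjusted p = 0.00145)). It lies 119 bases from ZNFX1. LOC110261231 (XR_002345205.1) fell with 437, 527 and 441 CPM in Ha1 to Ha3 and 14.9, 17.2 and 14.8 in La1 to La3 (-4.93 ± 0.25 (SE, edgeR adjusted p = 0.000503)).

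Assembled transcripts were among the strongest. MSTRG.6903.3, which overlaps TUFT1 and lies 151 bases from CGN, a gene of tight junctions, fell with 1290, 1851 and 1375 CPM in Ha1 to Ha3 and 259, 249 and 247 in La1 to La3 (-2.62 ± 0.21 (SE, edgeR adjusted p = 0.00145)). MSTRG.19609.1 rose with 1.76, 1.76 and 8.61 CPM in Ha1 to Ha3 and 284, 157 and 313 in La1 to La3 (5.84 ± 0.65 (SE, edgeR adjusted p = 0.00547)). On this scale 3 counts make 5.27, 5.29 and 5.17 CPM in Ha1 to Ha3, so the size of that fold rests on very few Hezuo counts. MSTRG.13275.2, between LRAT and FGG, was called at 1.71 ± 0.18 (SE, edgeR adjusted p = 0.00416), and lost that with limma on log2(FPKM + 1), with a replicate block and with all 12 libraries in one fit (0.98 to 1.75, adjusted p 0.00606 to 0.0769). MSTRG.24817.1, on unplaced sequence, was called at -3.50 ± 0.36 (SE, edgeR adjusted p = 0.00392), and lost that with a replicate block (-3.53, adjusted p = 0.0665). MSTRG.10331.3, beside LOC110261391, had 0, 0 and 2 counts in Ha1 to Ha3 and 502, 450 and 374 in La1 to La3, all higher in Landrace (adjusted p = 0.000993).

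Some lncRNA differences were between transcripts of one locus. At MARC2 (chromosome 10), XR_002336193.1 had 0 counts in each Hezuo library and 2523, 1555 and 2125 counts in La1 to La3, at least 732-fold higher, and lost its call with a replicate block (adjusted p = 0.0530). It overlaps MARC1. Its sister XR_002336194.1 was present in both breeds and not called (1.60, adjusted p = 0.0729). At MSTRG.17394, within TLCD2, transcript MSTRG.17394.6 was higher in Landrace (3.21 ± 0.36 (SE, edgeR adjusted p = 0.00547)) and MSTRG.17394.7 at 0 counts in each Landrace library, at least 50-fold lower. The call of MSTRG.17394.6 was lost with a replicate block (3.14, adjusted p = 0.0671), and that of MSTRG.17394.7 with a replicate block (adjusted p = 0.0848). The sums of the pair overlapped, at 372, 362 and 382 CPM in Ha1 to Ha3 and 630, 283 and 490 in La1 to La3. At LOC110257510, within HIPK2, XR_002340218.1 was at least 28-fold higher and XR_002340219.1 at least 15-fold lower, and their sums overlapped too. The first lost its call with a replicate block (adjusted p = 0.112), and the second with limma on log2(FPKM + 1) and with a replicate block (adjusted p 0.00112 to 0.124). LOC100737304 (XR_002346641.1, chromosome 8, 44121473 to 44124508) had 0 counts in each Landrace library and 383, 344 and 353 CPM in Ha1 to Ha3, at least 56-fold lower, and lost its call with a replicate block (adjusted p = 0.0848). How reads were divided among overlapping transcripts is uncertain.

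Further transcripts beside named coding genes were looked at after the fact. MSTRG.17058.1, which overlaps SGCA and lies 2812 bases from COL1A1, had 68.5, 67.0 and 181 CPM in Ha1 to Ha3 and 901, 1234 and 1012 in La1 to La3 (3.27 ± 0.43 (SE, edgeR adjusted p = 0.00842)), and lost the call with a replicate block (3.41, adjusted p = 0.0692). COL1A1 itself was not called (0.46, adjusted p = 0.118). MSTRG.7879.1, which overlaps RDH16 and its copy LOC100512656, was lower in Landrace like RDH16 (-1.75 ± 0.26 (SE, edgeR adjusted p = 0.0126)), and lost the call with a replicate block, with all 12 libraries in one fit and without Ha1, Ha2 or La3 (-1.79 to -1.70, adjusted p 0.0530 to 0.147).

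The breed difference at 30 days was set beside that at 120 days, measured in Lb1 to Lb3 and Hb1 to Hb3, which are other boars. There, 628 coding genes were called (3.85% of those tested). Of the 1192 genes called at 30 days, 1027 could be tested at 120 days. Those called higher in Landrace at 30 days had a median log2 fold change of 0.77 at 120 days, and 374 of 458 (81.7%) had the same sign. Those called lower had a median of -0.17 at 120 days, and 344 of 569 (60.5%) had the same sign. Over all genes tested at both ages the same sign was kept by 60% of those higher and 56.1% of those lower at 30 days. The median over all genes tested at 120 days was 0.00. The genes called at both ages made up 9.14% of the calls at 30 days and 17.4% of those at 120 days, with 82 higher at both ages and 19 lower at both. The test of the difference between ages (the interaction of breed and age over all 12 libraries) called 890 genes (5.14%), and 306 of the 1192 (25.7%) were among them. Both use the same Ha and La libraries, so the selection of the 1192 raises that share. The genes called at both ages came to 205 with DESeq2, 34 with a replicate block, and 25 without Lb2, 29 without Hb3, 36 without Lb3 and 44 without Lb1. The interaction calls came to 1364 with DESeq2, and to 437 without Ha1, 461 without La3, 490 without La2, 501 without Ha2, 566 without Hb3, 575 without Lb2 and 577 without La1.

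The RPS4X entry was higher in Landrace at 120 days too, with 9.91, 5.29 and 0 CPM in Hb1 to Hb3 and 724, 864 and 647 in Lb1 to Lb3. The limit on placing its reads holds here as well. PTTG1IP, a nuclear import partner of securin, had 0, 1.97 and 0.738 CPM in Ha1 to Ha3 and 152, 167 and 153 in La1 to La3, and its log2 fold change was 7.45 ± 0.61 (SE, edgeR adjusted p = 0.000567) at 30 days and 3.54 (edgeR adjusted p = 0.00462) at 120 days. TMSB15B, beside TMSB15A on the X chromosome, was 3.93 ± 0.32 (SE, edgeR adjusted p = 0.000574) at 30 days and 4.96 (edgeR adjusted p = 0.000367) at 120 days. They are closely related, so the counts of either may hold reads of the other. SCD5, a fatty acid desaturase, was 1.43 ± 0.22 (SE, edgeR adjusted p = 0.00487) and then 4.80 (edgeR adjusted p = 0.00627). MORC4 (1.26, adjusted p = 0.00544) and P3H3 (1.19, adjusted p = 0.00839) were higher at both ages as well, and P3H3 lost the call at 30 days without Ha1 (0.96, adjusted p = 0.00551). Lower at both ages were HACL1, a peroxisomal lyase (-1.18, adjusted p = 0.00289), SLC4A4, a bicarbonate transporter (-1.43, adjusted p = 0.000627), STRAP (-1.48, adjusted p = 0.0138) and PM20D1 (-1.37, adjusted p = 0.00272). SLC4A4 lost the call at 30 days with limma on log2(FPKM + 1) (-0.93, adjusted p = 0.00317).

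The 8 genes called in opposite directions at the ages included SARDH, which breaks down sarcosine. It had 7.25, 5.26 and 5.82 CPM in Ha1 to Ha3 and 0.551, 0.854 and 0.675 in La1 to La3 at 30 days (-3.14 ± 0.28 (SE, edgeR adjusted p = 0.000646)) and 2.39 (edgeR adjusted p = 0.0162) at 120 days, and the difference between ages was 5.48. ADAMTSL2, a matrix protein, fell at 30 days (-1.47 ± 0.13 (SE, edgeR adjusted p = 0.000638)) and rose at 120 days (1.32 (edgeR adjusted p = 0.0454)). ETV4, a factor that FGF signals induce, rose at 30 days (1.61 ± 0.31 (SE, edgeR adjusted p = 0.0110)) and fell at 120 days (-1.30 (edgeR adjusted p = 0.0335)), and lost the first call with limma on log2(FPKM + 1) (0.90, adjusted p = 0.00759). FHDC1 did likewise (1.42, adjusted p = 0.00231 and then -1.26 (edgeR adjusted p = 0.0374)), and lost the first call with limma on log2(FPKM + 1) (0.58, adjusted p = 0.00433). HPD, an enzyme of tyrosine breakdown, was -1.43 ± 0.41 (SE, edgeR adjusted p = 0.0436) at 30 days, a call lost without Ha1, Ha2, La2 or La3 (-1.31 to -1.17, adjusted p 0.115 to 0.142). At 120 days it was near 0 in Hb, with 0, 0 and 0.132 CPM, and at 19.8, 13.7 and 11 CPM in Lb. TNFRSF19 (-1.08, adjusted p = 0.0128) and THEM6 (-1.76, adjusted p = 0.00660) were lower at 30 days and higher at 120 days. TNFRSF19 lost the first call in 3 and THEM6 in 1 of 15 settings.

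Genes described above were also tested for a change with age. For AMH the difference between ages was -1.48 with an interaction adjusted p of 0.245, not called, while for INHBA it was -1.76 and called. DAZL was -0.08 (edgeR adjusted p = 0.757) at 120 days, and the interaction of 1.53 was called. CYP21A2 was 3.79 (edgeR adjusted p = 0.112) at 120 days, with 0.927, 0.139 and 0.0659 CPM in Hb1 to Hb3 and 0.509, 12.0 and 2.72 in Lb1 to Lb3, and the interaction of 5.60 was called. MKI67 was -0.47 (edgeR adjusted p = 0.220), and its interaction of 0.63 was not called. IFI6 was -0.40 (edgeR adjusted p = 0.408), and its interaction of -2.0 was called. HK2 was 0.87 (edgeR adjusted p = 0.0182), and the interaction of 3.10 was called.

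Of 13 genes that the study names, all 13 were in the table and 11 tested, with 0 called higher and 3 lower (CYP21A2, SIX4 and SPATS1). Their median was -0.06, which changed sign in 3 settings, and HSD17B4, a peroxisomal enzyme (0.15, adjusted p = 0.525), was the most counted. SPATS1 (-1.61, adjusted p = 0.0339) lost the call in 7 of 15 settings. Since the list was chosen on these samples, its count is not independent evidence.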

How the data were processed

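The deposited tables give, for every library, an estimated count per coding gene and per lncRNA transcript. FPKM, scaled by the authors for length and depth, stands beside it. Per the authors, reads were cleaned with fastp 0.18.0, ribosomal reads removed with Bowtie2 2.2.8, the rest mapped to Sscrofa11.1 with HISAT2 2.1.0, and transcripts assembled with StringTie 1.3.4. Nothing was normalized in the estimated count deposited, and the tool behind it is not given in the sources used here. All columns were matched to their library by label.

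Counts were rounded, filtered with filterByExpr (minimum count 10) and scaled by TMM, and La was tested against Ha by quasi-likelihood in edgeR 4.0.16 (R 4.3.3), with coding genes and lncRNAs fitted apart. Adjusted p values (Benjamini-Hochberg) cover all features tested in a table. The SE is the size of the log2 fold change over the square root of the F statistic, and is left out at the floor of 3 counts. Bounds divide the mean CPM of the higher group by the CPM that 3 counts make in the shallowest library of the other. The interaction of breed and age used all 12 libraries. Counts of genes called at both ages and of interaction calls were repeated only with DESeq2, with a replicate block and without each library. CPM for display were scaled over the 12 libraries of a table. List medians put floor members at their bound. Alternatives were DESeq2 1.42.0, library sizes without TMM, upper-quartile factors, no filter, 10 counts in every library of a group, limma 3.58.1 on log2(FPKM + 1) and log2(FPKM + 0.1), a replicate block, all 12 libraries in one fit, and leaving out each library. Tables and figures were made with Python 3.11.15, numpy 2.4.6, pandas 2.3.3 and matplotlib 3.10.9.

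Genes were named by rule: the 8 genes with a symbol and the smallest adjusted p in each direction, the 5 most counted of those with a breed at the floor in each direction, of each list up to 4 called members in each direction and its 2 most counted members, the lncRNAs with the smallest adjusted p or the highest level at the floor, the genes called at both ages with the smallest adjusted p, those called in opposite directions, the 3 most counted calls in each direction, and genes the study names. Neighbouring copies, transcripts beside named genes, the named Y-linked genes and APOA1 were chosen after their values were seen, as were further list members given for context. The members and the 44 lists were chosen with earlier results of these data known. Some genes that the rule picks are not reported here. Positions come from the RefSeq annotation of Sscrofa11.1.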

Additional observations from a re-analysis of the deposited data

Results flagged for a closer look

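Through every setting, 263 genes and transcripts were followed. For 56 of them, the breed difference at 120 days differed from that at 30 days by the interaction test of edgeR over all 12 libraries. Over all coding genes that test called 890 of 17332 (5.14%). Of the 263, 155 were called at 30 days. The test uses the same Ha and La libraries, so their selection raises the share. Leaving out 1 library gave 437 to 1242 interaction calls. The values below are log2 fold changes at 120 days minus those at 30 days. They were positive, so Landrace stood higher relative to Hezuo at 120 days than at 30 days, for AKR1C1 7.07, LOC106504562 6.68, CYP21A2 5.60, SARDH 5.48, ITPR3 4.59, CCNA2 4.38, COL1A1 4.02, CBR1 4.0, FOSB 3.84, HP 3.47, THEM6 3.41 and SCD5 3.31. Positive values also held for COL3A1 3.19, MFAP3L 3.17, NQO1 3.15, HK2 3.10, TNFRSF19 3.00, COL1A2 2.83, ADAMTSL2 2.73, COL2A1 2.38, CTGF 2.30, MASP1 2.24, PDGFRB 2.09 and CRABP1 2.09. Smaller positive values were those of NR0B1 2.07, PLTP 2.02, LOC110257929 1.79, DHCR7 1.63, P3H3 1.55, DAZL 1.53, TGFB3 1.51, CNKSR3 1.46, GGT1 1.32, TKTL1 1.21 and IGFBP7 1.18. They were negative for PTTG1IP -3.95, LY6G6F -3.71, ETV4 -2.95, FHDC1 -2.73, RPL10 (MSTRG.19243) -2.43, ACVRL1 -2.29, IFI6 -2.0, GDNF -1.90, COL18A1 -1.84, PRM1 -1.83, IGSF3 -1.82, INHBA (MSTRG.23658) -1.76 and SMAD6 -1.24. Where a group was at the floor of 3 counts the value is the adjusted p of that test in place of a fold: SLC4A1 0.00996, COL5A1 0.0119, SURF4 0.00861, ADAM5 0.00377, ERV3-1 0.0472, HPD 0.000830, SPATA3 0.0319 and LOC106504154 0.0169.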

How the results depend on the processing

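Of the 155 followed features called, 75 kept the call in every setting and 80 lost it in at least 1, most often with limma on log2(FPKM + 1) (48), and none turned direction. With limma on log2(FPKM + 1), 506 coding genes were called (218 higher, 288 lower) and 65 lncRNAs (34 higher, 31 lower). Without a limit on the fold change, 3333 coding genes passed (1575 higher, 1758 lower). DESeq2 called 214 lncRNAs (97 higher), the stricter filter 200 (119 lower), and limma on log2(FPKM + 0.1) 97 higher. Same-numbered libraries of the breeds were no more alike than others, and a replicate block gave 1030 coding genes, of which 980 were among the 1192, and 9 lncRNAs (5 higher, 4 lower). For genes called at both ages, DESeq2 gave 205 and the replicate block 34, and for the interaction DESeq2 gave 1364. Leaving out 1 library gave 831 to 1466 coding genes (421 to 708 higher, 408 to 758 lower), 47 to 125 lncRNAs (19 to 57 higher, 24 to 68 lower), 25 to 147 genes called at both ages and 437 to 1242 interaction calls. The libraries whose loss moved a count by over 1.5 times were La3 for coding genes called lower, Ha1, Ha2, La1, La2 and La3 for lncRNAs, Hb3, Lb1, Lb2 and Lb3 for both ages, and Ha1, Ha2, La1, La2, La3, Hb3 and Lb2 for the interaction. Leaving out a library also leaves fewer boars. For the other changes the cause was not tested.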
